A study of Mus musculus with 11 samples.

Results

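The genes described here were 10 components of the circadian clock, Arntl (also called Bmal1), Clock, Npas2, Per1, Per2, Per3, Cry1, Nr1d1, Nr1d2 and Dbp, chosen by symbol from the 45777 genes of an expression table of mouse skin and small intestine. All 10 symbols were found, and all 10 genes had counts in every library. The clock is a loop of transcription factors that runs in nearly every cell and turns over about once a day. ARNTL pairs with CLOCK or NPAS2 and switches on the Per and Cry genes, the Nr1d genes and Dbp. PER and CRY proteins then block the ARNTL complex, and the REV-ERB proteins made from Nr1d1 and Nr1d2 repress Arntl, so that Arntl and many of its targets peak at opposite times of day. In skin and gut this loop is known to time cell division, barrier function and immune responses, and the level of a clock gene in a tissue sample therefore depends on the hour at which the tissue was taken.

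RNA was sequenced from the skin and small intestine of BALB/c mice, female or male, that were 8-10 weeks old at treatment. IMQ mice received 62.5 mg per day of a 5% imiquimod cream (Aldara), a ligand of Toll-like receptor 7 that induces psoriasis-like dermatitis, on the shaved back and right ear. Control mice received vehicle (Vaseline) in the same way, and the treatment lasted 5-8 days according to the labels. The 4 groups were skin control (3 libraries, numbered 1, 2 and 3), skin IMQ (3 libraries, numbered 4, 5 and 6), intestinal control (3 libraries, numbered 7, 8 and 9) and intestinal IMQ (2 libraries, numbered 10 and 11). Neither the labels nor the methods give the hour of tissue collection, the light schedule, the days of treatment behind each library or whether skin and intestine came from the same mice. In these data the hour of collection and the treatment therefore cannot be told apart where they differ together.

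Library totals ran from 44995414 to 58526384 counts. Epidermal markers were high in skin alone and intestinal epithelial markers high in intestine alone, with 1 library standing apart. Skin control 2 held 371 CPM (counts scaled to a common library total) of 12 summed intestinal epithelial markers, against 10.2 to 21.0 CPM in the other skin libraries, and its 14 growing hair follicle markers summed to 61.4 CPM, against 1629 and 2598 in skin controls 1 and 3 and 41.6 to 74.7 in skin IMQ. Summed leukocyte markers were 669 to 927 CPM in skin control and 5583 to 5936 in skin IMQ, and 402 to 524 in intestinal control and 1006 to 1072 in intestinal IMQ. Most of the skin IMQ sum came from S100a8 (1372 to 1663 CPM) and S100a9 (2280 to 2799 CPM). In skin control these were at 0.70 to 2.21 and 3.30 to 4.03 CPM. Ptprc was at 49.0 to 93.9 CPM in skin control and 137 to 179 in skin IMQ. Csf1r was at 120 to 193 and 190 to 247 CPM, so that its groups overlapped. In whole tissue, fewer cells of a type and less RNA per cell cannot be told apart.

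The 10 genes lie apart in the genome (RefSeq, GRCm38.p6), except that Arntl (chr7:113178471-113314126, plus strand) shares a chromosome with Dbp (chr7:45705100-45710203, plus strand), Npas2 (chr1:39193702-39363240, plus strand) with Per2 (chr1:91415977-91459351), and Per1 (chr11:69095108-69109965, plus strand) with Nr1d1 (chr11:98767932-98775377, minus strand). Clock (chr5:76209868-76305603), Per3 (chr4:150997018-151044707), Cry1 (chr10:85131700-85185054) and Nr1d2 (chr14:18204056-18239106) are on the minus strand of other chromosomes. The loop is written in short DNA motifs, and 3 of them were searched on both strands in the RefSeq promoter windows (250 bases before to 50 after each transcription start, GRCm38.p6), which were given for 9 of the 10 genes in 13 windows. They were the E-box bound by ARNTL complexes (CACGTG), the D-box bound by DBP and its relatives (TTANGTAA), and the core of the element bound by ROR and REV-ERB proteins (TAGGTCA). Windows holding a motif belonged to 4 genes, and the stretches around these motifs are shown, with the motif in capitals, because they show which of the searched letters each gene's start carries.
Per3 (chr4:151044786-151044900, minus strand, D-boxes 205 and 158 bases upstream): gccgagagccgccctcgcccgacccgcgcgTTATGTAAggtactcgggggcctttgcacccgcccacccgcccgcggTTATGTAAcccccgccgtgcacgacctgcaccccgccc
Per1 (chr11:69098753-69098818, plus strand, E-box 166 bases upstream): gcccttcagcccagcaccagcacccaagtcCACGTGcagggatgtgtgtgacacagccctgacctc
Cry1 (chr10:85185079-85185144, minus strand, E-box 60 bases upstream): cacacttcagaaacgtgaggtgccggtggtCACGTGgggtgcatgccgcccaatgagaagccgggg
Arntl (chr7:113207531-113207557, plus strand, ROR element core from base 31 of the transcript): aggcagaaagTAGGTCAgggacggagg
Over all 32851 mouse promoter windows, 7.15% held the E-box, 2.32% the D-box and 2.61% the ROR element core. The windows of Clock, Npas2, Nr1d1, Nr1d2 and Dbp held none of these letters, which says nothing of sites elsewhere in those genes.

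Levels of different genes were compared per length, as FPKM, a read level scaled by transcript length and library depth. In skin control the order by mean FPKM was Nr1d1 (37.2 ± 11.9, SD, n = 3), Dbp (21.0 ± 7.72), Nr1d2 (20.4 ± 5.03), Arntl (10.9 ± 1.08), Per1 (8.98 ± 4.30), Clock (6.46 ± 1.01), Per3 (5.65 ± 1.53), Cry1 (3.87 ± 0.398), Npas2 (1.55 ± 0.0436) and Per2 (1.39 ± 0.336). The ranges of mean ± SD overlapped between all neighbours in this order except from Nr1d2 to Arntl and from Cry1 to Npas2. In intestinal control the highest was again Nr1d1 (30.8 ± 11.7 FPKM, n = 3), followed by Nr1d2 (12.2 ± 7.03), Arntl (11.9 ± 4.81), Clock (10.0 ± 1.29), Npas2 (8.69 ± 2.88), Dbp (6.92 ± 6.71), Cry1 (4.01 ± 0.796), Per1 (2.96 ± 1.5), Per2 (2.49 ± 0.945) and Per3 (1.55 ± 1.38). All intestinal neighbours in that order overlapped within their SD, and for Dbp and Per3 the SD nearly equalled the mean.

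**Figure D1:**
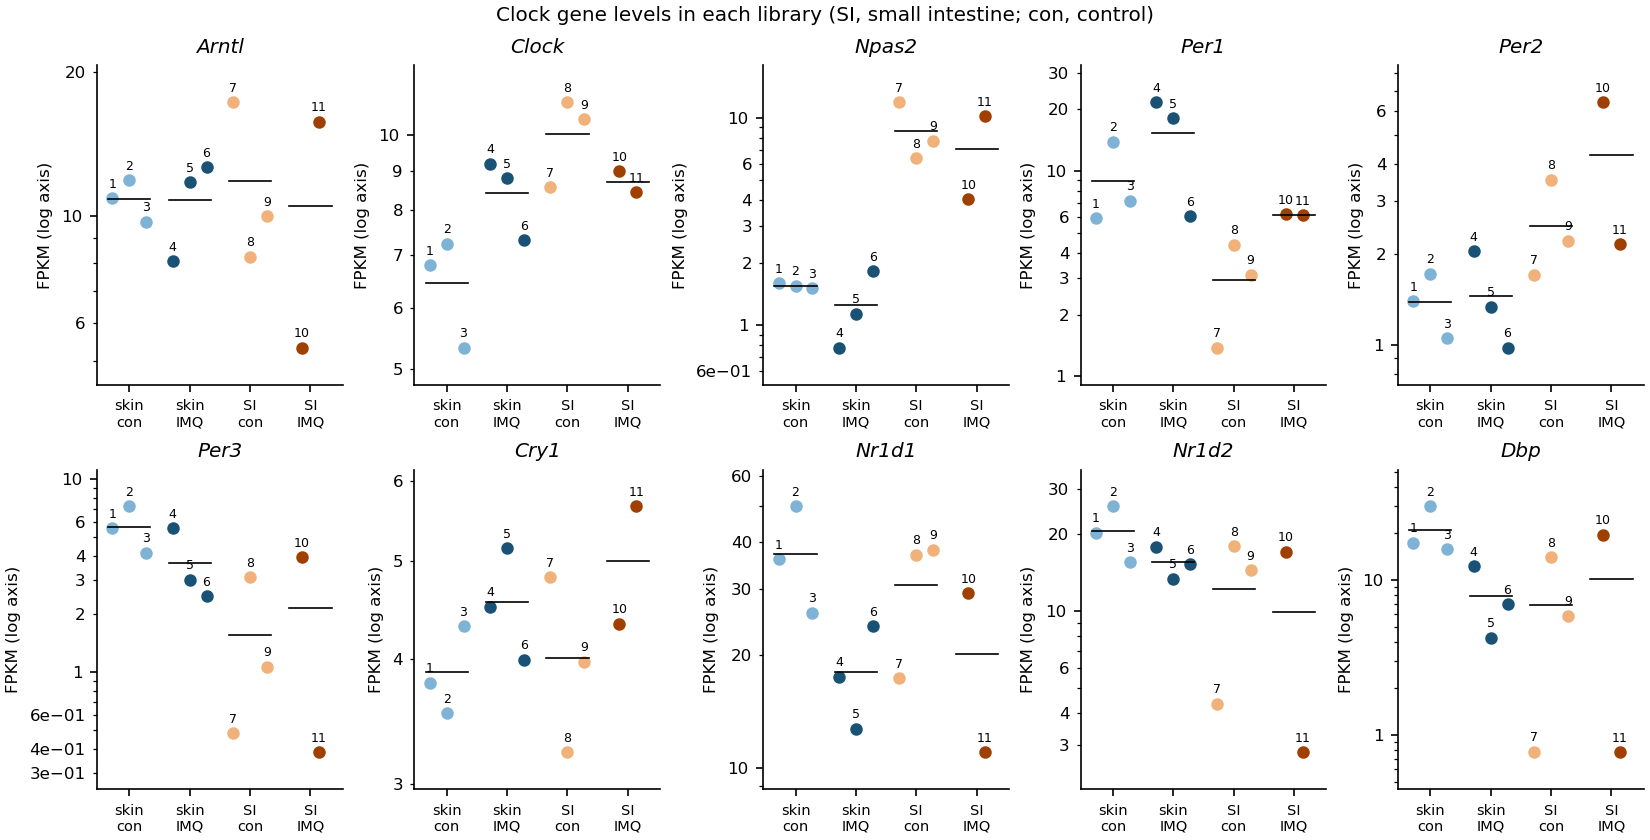
FPKM of each clock gene on a log axis (vertical) in skin control, skin IMQ, small intestine (SI) control and SI IMQ; each point is a library with its number, and the line is the group mean. Dbp, Per3 and Nr1d2 were low in intestinal libraries 7 (control) and 11 (IMQ) and high in libraries 8 (control) and 10 (IMQ).

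The widest differences between libraries were in the small intestine, and they ran inside each treatment group rather than between the groups. Values within a tissue are given as normalized counts, which are counts scaled to the mean effective library size of that tissue. Dbp, a clock output gene that encodes a D-box activator, had 74.8, 1266 and 597 normalized counts in intestinal controls 7, 8 and 9, and 1837 and 76.5 in intestinal IMQ 10 and 11. The highest and the lowest library thus differed 16.9-fold within the controls and 24.0-fold within the IMQ pair, and the groups overlapped. The low values rested on 69 counts in each of libraries 7 and 11. Of the 1837 exonic bases of Dbp, 539 overlap Sphk2 on the opposite strand, and whether counting used the strand is not stated. Per3, a period gene, had 172, 1006 and 356 normalized counts in the 3 controls and 1347 and 141 in IMQ. Libraries 8 and 10 were again high and libraries 7 and 11 low, a range of 5.83-fold among controls and 9.57-fold in IMQ.

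The REV-ERB genes were low in the same libraries. Nr1d2 had 1182, 4518 and 4026 normalized counts in intestinal controls 7, 8 and 9 and 4527 and 807 in intestinal IMQ 10 and 11. Nr1d1 had 2824, 5568 and 6366 in the controls and 4628 and 1892 in IMQ. For both genes library 11 was lowest and library 7 next, and the other 3 libraries were above both.

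The activators Arntl and Npas2 ran the other way. Arntl had 2959, 1292 and 1763 normalized counts in controls 7, 8 and 9 and 905 and 2864 in IMQ 10 and 11. Npas2, which can replace Clock as the partner of Arntl, had 2812, 1401 and 1881 in the controls and 932 and 2530.3 in IMQ. Libraries 7 and 11, where Dbp was low, held the most Arntl and Npas2, and library 10, where Dbp was highest, held the least. Clock itself, whose transcript cycles little in many tissues, had 5131, 6106 and 6497 in the controls and 5018 and 5319 in IMQ, a range of 1.29-fold over the 5 libraries.

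Per1 and Per2 followed the pattern of Dbp in part, and Cry1 ran with Arntl in part. Per2, a period gene that ARNTL complexes activate, had 573, 1120.1 and 783 normalized counts in controls 7, 8 and 9 and 2147 and 784 in IMQ 10 and 11. It was highest in library 10 and lowest in library 7, but library 11 was level with control 9. Per1, which also responds to glucocorticoids and to inflammatory and stress signals, had 390.5, 1141 and 906 in the controls and 1675 and 1811 in IMQ, so that both IMQ libraries lay above all 3 controls. Cry1, a cryptochrome that blocks the ARNTL complex, had 856, 533 and 723 in the controls and 751 and 1060.0 in IMQ. It was highest in library 11 and next in library 7, where Dbp was low, and lowest in library 8.

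**Figure D2:**
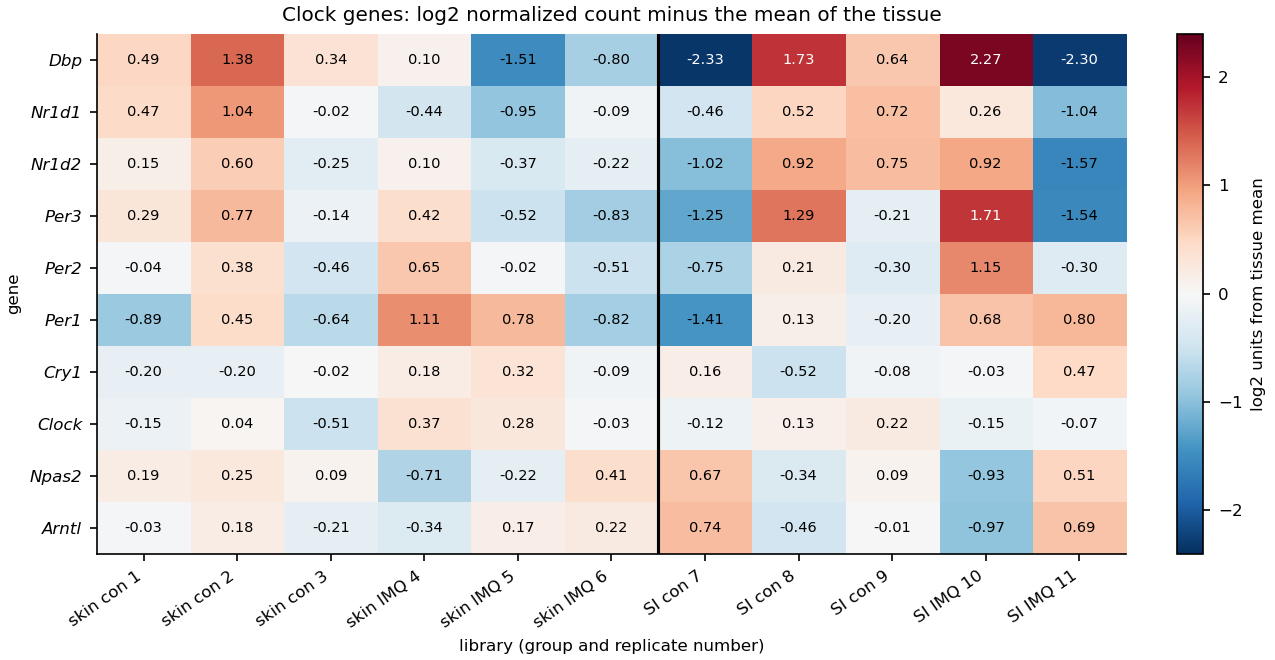
Each clock gene (rows) in each library (columns) as log2 normalized count minus the mean of the tissue, in log2 units; red is above and blue below the tissue mean, and the black line divides skin from small intestine (SI). Dbp was at -2.33 and -2.30 in SI control 7 and SI IMQ 11, and at 1.73 and 2.27 in SI control 8 and SI IMQ 10, while Arntl had the opposite signs in these 4 libraries.

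Ratios of FPKM inside a library do not depend on how libraries are scaled to each other. The log2 ratio of Dbp to Arntl was -4.47 in intestinal control 7 and -4.35 in intestinal IMQ 11, against 0.77 in control 8, -0.76 in control 9 and 1.89 in IMQ 10. For Per3 to Arntl it was -5.17 and -5.35 in libraries 7 and 11, and -1.41, -3.23 and -0.44 in libraries 8, 9 and 10. The order of the 5 libraries was the same for these 2 ratios except for the last places, which libraries 7 and 11 exchanged. The ratio of Nr1d2 to Arntl was -2.0 and -2.49 in libraries 7 and 11 and 1.12, 0.52 and 1.68 in libraries 8, 9 and 10. Npas2 and Arntl kept nearly the same proportion throughout the intestine, with log2 ratios from -0.63 to -0.37.

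**Figure D3:**
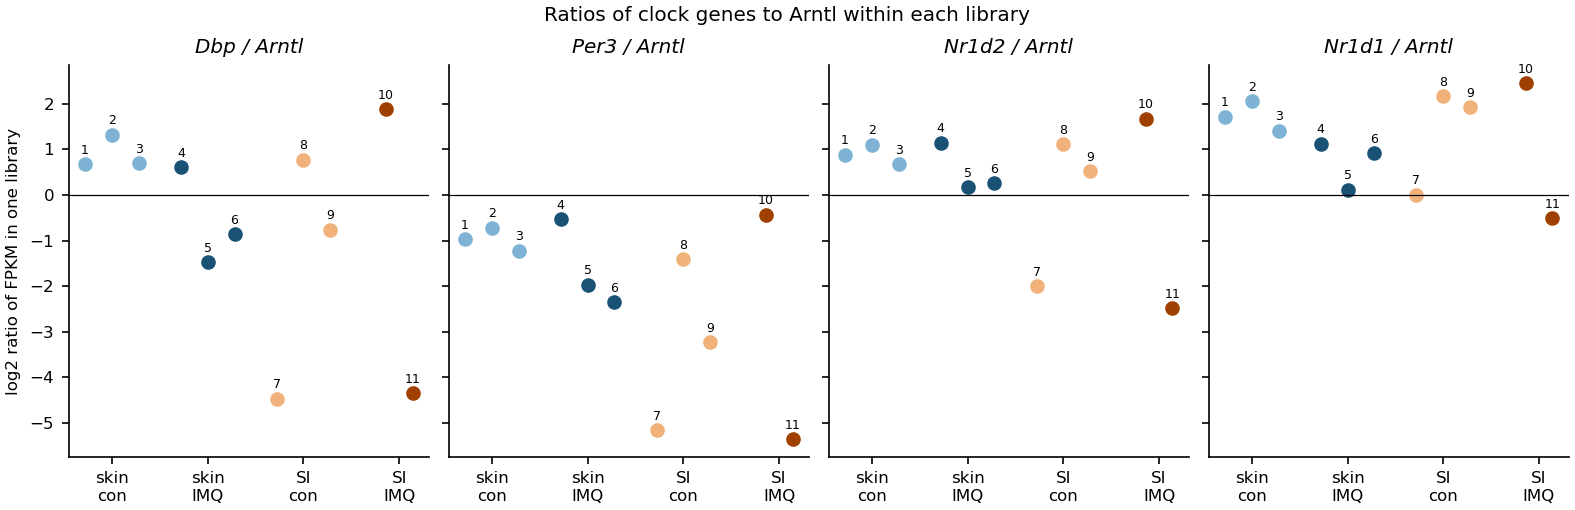
Log2 ratio of the FPKM of Dbp, Per3, Nr1d2 and Nr1d1 to that of Arntl (vertical, log2 units) in each numbered library of the 4 groups; the line marks equal FPKM. In the small intestine (SI), control 7 and IMQ 11 lie together at the bottom of each panel, at -4.47 and -4.35 for Dbp.

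Taking the 10 genes together, the distance between 2 libraries was measured as the root mean square difference of log2 normalized counts. Intestinal IMQ 11 was nearest to control 7 (0.771) and IMQ 10 was nearest to control 8 (0.516), whereas the IMQ libraries were 2.16 apart. Over the 13732 genes with a mean of at least 100 normalized counts in the intestine the reverse held. The IMQ libraries were 0.414 apart, controls were 0.393 to 0.484 apart, and pairs of a control and an IMQ library were 0.592 to 0.739 apart. The intestinal libraries thus grouped by treatment over all expressed genes but not over the clock genes.

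In skin the contrast was weaker. Distances over the clock genes were 0.325 to 0.975 between libraries of a group and 0.485 to 1.26 between groups, and over 14588 genes they were 0.303 to 0.774 and 0.793 to 0.959. Skin IMQ 6 was nearer to controls 3 (0.485) and 1 (0.613) than to IMQ 5 (0.696) or IMQ 4 (0.975) by the clock genes, although over all genes it was nearest to IMQ 5 (0.399).

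Libraries of a group differed more in the clock genes than in most other genes. The median SD of log2 normalized counts over the 10 genes was 0.419 in skin control, 0.501 in skin IMQ, 0.616 in intestinal control and 1.02 in intestinal IMQ. Over all genes with at least 100 normalized counts on average it was 0.220, 0.159, 0.181 and 0.141 in the same order. Dbp had the highest SD of all 13732 genes in intestinal IMQ (3.24 log2 units, n = 2), Per3 ranked 8 (2.30) and Nr1d2 ranked 22 (1.76). In intestinal control Dbp ranked 20 (2.11, n = 3). Clock, with 0.281, 0.210, 0.177 and 0.0594 in skin control, skin IMQ, intestinal control and intestinal IMQ, was above the median over all genes in both skin groups and below it in both intestinal groups. Npas2 (0.0814), Cry1 (0.105) and Arntl (0.196) were below the median over all genes in skin control.

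**Figure D4:**
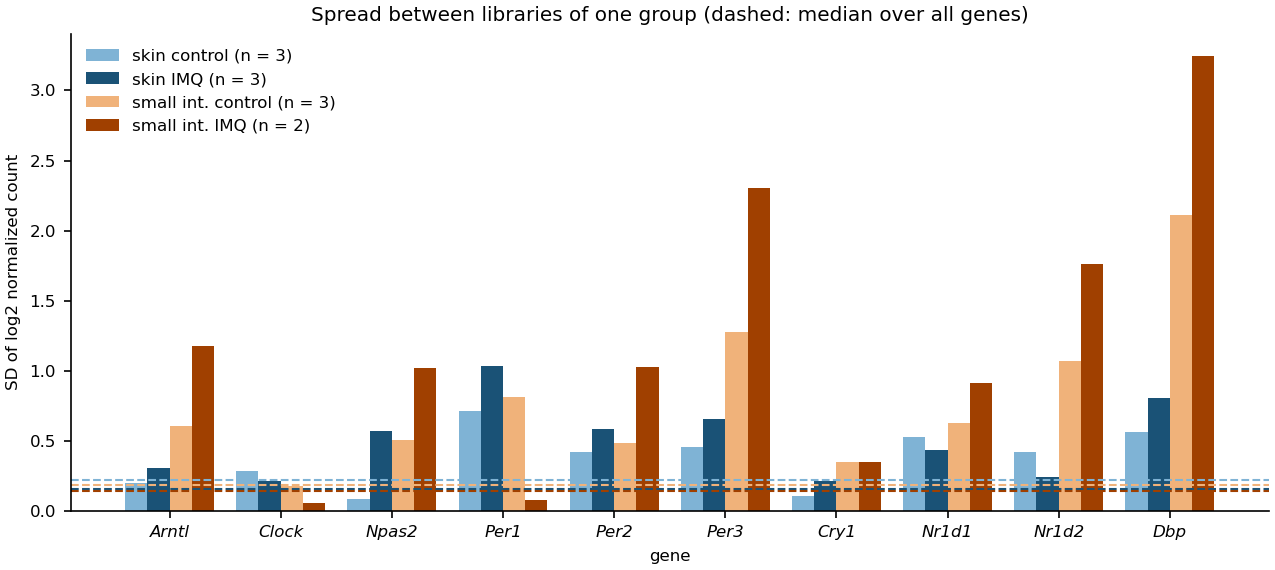
SD of log2 normalized counts (vertical, log2 units) between the libraries of each group for the 10 clock genes, with dashed lines at the median SD over all genes of each group. Dbp reached 2.11 in intestinal control and 3.24 in intestinal IMQ, where the medians over all genes were 0.181 and 0.141.

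Cell content also differed between the intestinal libraries. All 6 of 6 smooth muscle markers (Myh11, Actg2, Cnn1, Des, Smtn and Acta2) had their 2 lowest values in libraries 7 and 11, and none was at 0. Their sum was 832, 1353 and 1179 CPM in controls 7, 8 and 9 and 1491 and 460 CPM in IMQ 10 and 11, a 3.24-fold range. The 12 intestinal epithelial markers summed to 23572 CPM in library 8 and 43299 CPM in library 11, a 1.84-fold range. Most of that difference was Apoa4, at 2021 CPM in library 8 and 19428 CPM in library 11. Fabp1, Apoa1 and Alpi were also higher in library 11. Vil1, Fabp2, Lct, Sis, Cdx1, Cdx2, Lgals4 and Cdh17 were lower in library 11 than in library 8. The distal small intestine markers, Fabp6 and Slc10a2, summed to 2.20, 5.16 and 3.78 CPM in controls 7, 8 and 9 and 2.50 and 1.63 CPM in IMQ 10 and 11, and this sum too was lowest in libraries 7 and 11. Slc10a2 had 62, 206 and 187 counts in the controls and 93 and 73 in IMQ, and neither marker was at 0. Fabp6 had 44, 42 and 34 counts in the controls and 47 and 7 in IMQ, and was low in library 11 alone. Its intestinal counts were no higher than in skin, where it had 20 to 49 counts. The 4 proximal markers (Gata4, Onecut2, Pdx1 and Lct) summed to 2319, 1955 and 1444 CPM in the controls and 2035 and 1719 in IMQ. That sum was highest in library 7 and lowest in library 9, and most of it was Lct. Gata4 was at 144, 140 and 131 CPM in the controls and 123 and 146 in IMQ. Onecut2 was at 58.0, 14.2 and 28.2 CPM in the controls and 77.4 and 97.0 in IMQ. Pdx1 had 67, 22 and 51 counts in the controls and 70 and 299 in IMQ. The part of muscle content, epithelial content or position along the gut in the clock gene differences was not tested.

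The genes whose pattern was most like that of Dbp over the 11 libraries were found by the root mean square difference of log2 normalized counts centred within each tissue, among 12622 genes. They were Tef (0.65), Per3 (0.65), Nr1d2 (0.82), Hlf (0.91) and Kcnip2 (0.95), where the difference from a flat line would be 1.49. Tef and Hlf encode the closest relatives of DBP, both D-box activators. Nr1d1 was 16th in that list. Nearest to the mirror image of Dbp were Tmem252 (0.92), Nfil3 (1.09), Arntl (1.12), Dpm1 (1.15) and Cpa3 (1.19). NFIL3 is the known repressor at D-boxes, and Cpa3 encodes a protease of mast cells.

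Tef and Nfil3 show the same libraries apart. Tef had 527, 2968 and 2272 normalized counts in intestinal controls 7, 8 and 9 and 4346 and 701 in intestinal IMQ 10 and 11. Nfil3 had 1106, 576 and 613 in the controls and 380.4 and 909 in IMQ. Tef was lowest, and Nfil3 highest, in libraries 7 and 11.

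For Arntl the gene most alike was Npas2 (0.22, where a flat line would give 0.47), followed by Rnf125 (0.28), Baiap2l1 (0.28), Eci3 (0.28) and Wfs1 (0.30). Nearest to its mirror image were Gm38592 (0.23), Rbpms (0.24), Ints6l (0.25), Carmn (0.25) and Pcdhga4 (0.26). The 11 libraries behind these measures share tissue, sequencing and treatment, and the measures carry no test.

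In skin, the question was whether IMQ changed the clock genes at the site of application. None of the 10 passed edgeR's quasi-likelihood test at an adjusted p of 0.05 (Benjamini-Hochberg over 20512 genes), where 6.74% of all genes did. At an unadjusted p under 0.05 there were 2, Nr1d1 and Dbp, and DESeq2 called these 2 where it called 15.7% of all genes.

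Nr1d1, the REV-ERBα gene, had 5204, 7726 and 3709 normalized counts in skin controls 1, 2 and 3 and 2774, 1942 and 3532 in skin IMQ 4, 5 and 6. All IMQ libraries lay below all controls, by a narrow gap between control 3 and IMQ 6. Of the 2721 exonic bases of Nr1d1, 263 overlap Thra on the opposite strand. The log2 fold change of Nr1d1 was -1.01 (SE 0.31), with an adjusted p of 0.111 by edgeR's quasi-likelihood test and 0.0224 by DESeq2.

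Dbp had 1513, 2809 and 1367 normalized counts in the skin controls and 1154, 378 and 618 in skin IMQ. The groups did not overlap, and IMQ 4 was close to control 3. The log2 fold change was -1.40 (SE 0.45), with an adjusted p of 0.122 by edgeR and 0.0156 by DESeq2. Groups that do not overlap with IMQ lower were found for these 2 of the 10 genes, and for 13.3% of all genes tested in skin, and with IMQ higher for 0 of the 10 and 15.1% of all genes.

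Both genes were highest in skin control 2, the library with intestinal transcripts and few hair follicle transcripts. Its 6 adipocyte markers summed to 1636 CPM, against 986 and 877 in skin controls 1 and 3 and 815 to 984 in skin IMQ, and its 6 proliferation markers to 271 CPM, against 850 and 899 in controls 1 and 3 and 409 to 522 in IMQ. The 6 skeletal muscle markers summed to 7902, 12180 and 8886 CPM in skin controls 1, 2 and 3 and 5862, 5738 and 10845 in IMQ 4, 5 and 6. None of these markers was at 0 in skin, and the part of fat, skeletal muscle or dividing cells in the differences was not tested. Without skin control 2 the log2 fold changes were -0.70 for Nr1d1 (edgeR adjusted p = 0.164) and -1.0 for Dbp (adjusted p = 0.195). Across the 6 fits that each left out 1 skin library, Nr1d1 ran from -1.24 to -0.70 and Dbp from -1.92 to -1.0, and none of these fits called any of the 10 genes.

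For the period genes, Cry1 and Nr1d2 the skin groups overlapped. Per1 had 1480.3, 3739 and 1758 normalized counts in the controls and 5927, 4714 and 1552 in IMQ, so that IMQ 4 and 5 were above, and IMQ 6 within, the range of the controls. Its log2 fold change was 0.81 (SE 0.54, edgeR adjusted p = 0.425). The 9 immediate early genes, none at 0, summed to 1955 CPM in IMQ 4, the library with the most Per1, against 532 to 826 CPM in the other 5 skin libraries, and without IMQ 4 the value for Per1 was 0.43 (adjusted p = 0.748). Their part in the Per1 values was not tested. Per2 had 425, 566 and 317 in the controls and 684, 429.8 and 306 in IMQ (0.12, SE 0.34). Its values were as far apart inside each group as between them.

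Per3 had 1742, 2429.6 and 1287 normalized counts in the skin controls and 1900.4, 991 and 797 in skin IMQ, a log2 fold change of -0.56 (SE 0.37, edgeR adjusted p = 0.413). IMQ 5 and 6 were below the controls and IMQ 4 was among them. Cry1 had 599, 599.8 and 679.9 in the controls and 778, 859.7 and 646 in IMQ (0.28, SE 0.15, adjusted p = 0.332). Nr1d2, which encodes REV-ERBβ, had 4891, 6663 and 3719.5 in the controls and 4722, 3403 and 3779 in IMQ (-0.36, SE 0.23, adjusted p = 0.408).

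Among the activators in skin, Arntl was at 1657, 1919 and 1464 normalized counts in the controls and 1339, 1897 and 1964 in IMQ, a log2 fold change of 0.05 (SE 0.18) whose sign turned with FPKM values and with 3 of 6 libraries left out. Clock was at 3608, 4097 and 2796 in the controls and 5169, 4832 and 3912 in IMQ (0.41, SE 0.18, edgeR adjusted p = 0.228). Only IMQ 6 fell among the controls. Npas2 was at 335, 350.0 and 313 in the controls and 179, 252 and 392 in IMQ (-0.28, SE 0.29, adjusted p = 0.632), close together in the controls and spread on both sides of them in IMQ.

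The skin libraries lay less far apart in Dbp and Arntl than the intestinal ones. In IMQ 5 and 6 Dbp was below the skin mean (-1.51 and -0.80 log2 units) and Arntl above it (0.17 and 0.22). In controls 1 and 3 and IMQ 4 Dbp was above the mean and Arntl below it. In control 2 both were above it (1.38 and 0.18). The log2 ratio of Dbp to Arntl was 0.67, 1.33 and 0.70 in skin controls 1, 2 and 3 and 0.61, -1.48 and -0.86 in IMQ 4, 5 and 6. Library IMQ 4 was close to controls 1 and 3 in this ratio. Summed leukocyte markers, mostly S100a8 and S100a9, were 5583 CPM in IMQ 4 and 5936 and 5588 in IMQ 5 and 6. Ptprc was lower in IMQ 4 (137 CPM) than in IMQ 5 and 6 (156 and 179). Itgam was higher in IMQ 4 (242 CPM, against 221 and 236). The part of leukocytes in the ratios was not tested. The log2 ratio of Per1 to Per2 was 2.07 to 3.01 in skin control and 2.62 to 3.76 in skin IMQ.

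**Figure D5:**
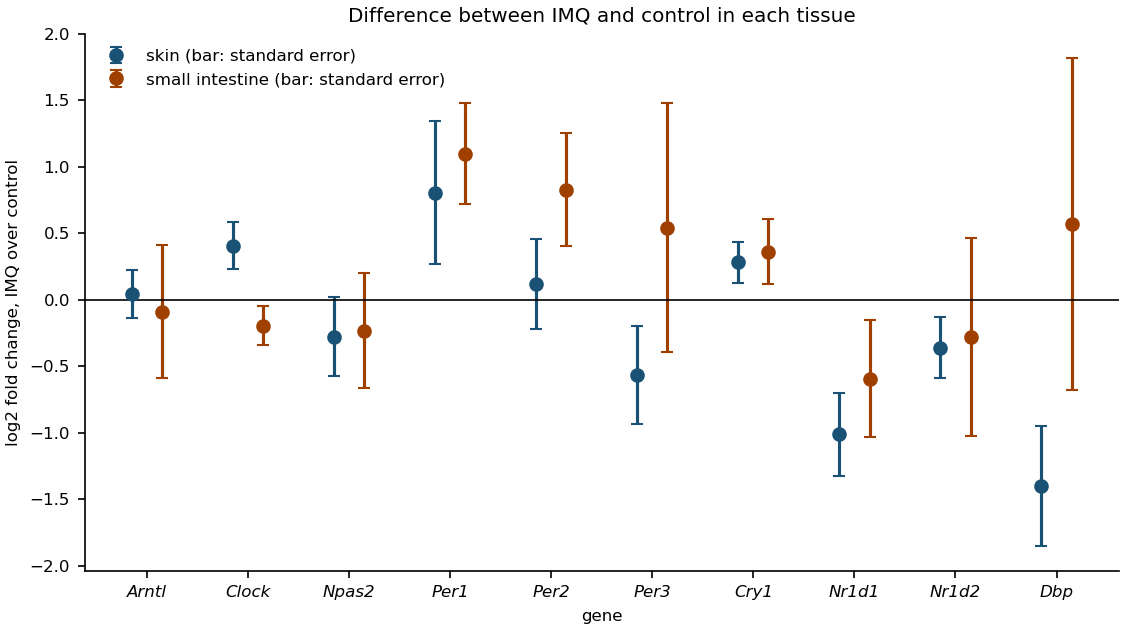
Log2 fold change of IMQ over control (vertical, log2 units) for each clock gene in skin and in small intestine from edgeR, with bars of 1 standard error. Dbp was at -1.40 in skin with a standard error of 0.45, and at 0.57 in small intestine with a standard error of 1.25.

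In the small intestine, the question was whether skin treatment reached the clock of a distant tissue. None of the 10 genes passed edgeR's quasi-likelihood test (adjusted over 19965 genes), where 2.95% of all genes did, and DESeq2 called 0 of the 10 where it called 6.69% of all genes. At an unadjusted p under 0.05 there was 1, Per1. Its log2 fold change was 1.10 (SE 0.38, edgeR adjusted p = 0.268), and it was the 1 gene of 10 whose groups did not overlap, with IMQ higher, as for 15.1% of all genes tested in the intestine. None of the 10 had IMQ below all controls, as 13.9% of all genes had. Without control 7, the lowest library, the value was 0.77 (adjusted p = 0.0505), and over the 5 fits that left out 1 library it ran from 0.77 to 1.42.

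For the genes with the widest spread the intestinal fold change was set by which libraries were in the fit. Dbp had a log2 fold change of 0.57 (SE 1.25, edgeR adjusted p = 0.924), which became -3.07 without IMQ 10 and 1.51 without IMQ 11. Per3 was at 0.54 (SE 0.94), -1.86 without IMQ 10 and 1.40 without IMQ 11. Nr1d2 was at -0.28 (SE 0.75), -2.0 without IMQ 10 and 0.48 without IMQ 11. With an SE of this size, changes of several fold in either direction could not be detected in Dbp.

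The remaining intestinal log2 fold changes were -0.59 for Nr1d1 (SE 0.44), 0.83 for Per2 (SE 0.43), -0.09 for Arntl (SE 0.50), -0.23 for Npas2 (SE 0.43), -0.19 for Clock (SE 0.14) and 0.36 for Cry1 (SE 0.24), with edgeR adjusted p-values of 0.700, 0.523, 0.976, 0.904, 0.701 and 0.660. Clock and Cry1, the genes with the smallest range over the 5 intestinal libraries (1.29-fold and 1.99-fold), had the smallest standard errors. The IMQ response was also compared directly between the tissues, in a fit of all 11 libraries with an interaction term. None of the 10 genes passed (edgeR, adjusted over 18108 genes), where 2.55% of all genes did and DESeq2 called 7.68%, with 0 of the 10 among them. Clock was the 1 gene with an unadjusted p under 0.05, its response being 0.59 log2 units lower in intestine than in skin (-0.59, adjusted p = 0.261). Dbp differed by 1.98 (SE 1.47, adjusted p = 0.555).

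The control libraries were compared between skin and small intestine, and 3 of the 10 genes passed edgeR's quasi-likelihood test (adjusted over 18890 genes), all lower in skin, where 26.2% of all genes were lower and 51.9% passed in either direction. Npas2 had 1.59, 1.55 and 1.51 FPKM in skin and 11.9, 6.38 and 7.77 in intestine, with no overlap. Its log2 fold change, skin over intestine, was -2.95 (adjusted p = 7.67e-05). Clock had 6.80, 7.25 and 5.33 FPKM in skin and 8.56, 11 and 10.5 in intestine (-1.09, adjusted p = 0.00161). Per2 had 1.39, 1.72 and 1.05 in skin and 1.71, 3.54 and 2.22 in intestine (-1.25, adjusted p = 0.0112), where the highest skin library was level with the lowest intestinal library.

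The tissue differences depended on the scaling, since the median log2 fold change of all genes was 0.00 with counts and 0.45 with FPKM values (+ 0.01). Npas2 and Clock passed in all 9 other settings and Per2 in 7 of 9, and DESeq2 called 6 of the 10 where it called 56.3% of all genes. The other 7 genes did not pass the test between tissues: Per3 (1.5, adjusted p = 0.0655), Per1 (1.19, adjusted p = 0.0690), Dbp (1.23, adjusted p = 0.240) and Nr1d2 (0.32, adjusted p = 0.605) had higher fitted values in skin, and Arntl (-0.59, adjusted p = 0.134), Cry1 (-0.51, adjusted p = 0.0702) and Nr1d1 (-0.16, adjusted p = 0.749) lower ones. Without intestinal control 8 the count of genes that passed was 6, with Arntl, Per3 and Cry1 added.

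Further genes of the loop were counted in the same fits, where edgeR called 6.74% of all genes in skin. Of 8 other loop components tested in skin (among them Cry2, Arntl2, Ciart, Bhlhe40 and Bhlhe41), 1 rose and 2 fell with IMQ, and their median log2 fold change was -0.37 against -0.01 over all genes. Bhlhe41 (Dec2), a repressor of the ARNTL complex, had 1280.3, 1022 and 1307 normalized counts in skin controls 1, 2 and 3 and 409, 241 and 469.8 in IMQ 4, 5 and 6, a log2 fold change of -1.69 (SE 0.26, edgeR adjusted p = 0.0164). Bhlhe40 (Dec1), its relative, had 3621, 4084 and 3625 in the controls and 6561, 5794 and 5535 in IMQ (0.66, SE 0.12, adjusted p = 0.0236). Cry2, the other cryptochrome, had 2069, 2476 and 1941 in the controls and 1469.8, 1360.5 and 1342 in IMQ (-0.64, SE 0.13, adjusted p = 0.0336).

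These 3 genes were named because they passed in the same libraries, and in each the skin groups did not overlap. Groups that do not overlap were found with IMQ lower for 13.3%, and with IMQ higher for 15.1%, of all genes tested in skin. The directions were unlike, down for Bhlhe41 and Cry2 and up for Bhlhe40. With 1 library left out the calls were fewer: none of the 3 passed without control 1 or without IMQ 4, 1 passed without IMQ 5, 2 without control 3 and 2 without IMQ 6, while all 3 passed without control 2. Each kept its sign in the 6 fits.

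The D-box factors Tef, Hlf and Nfil3 gave 0 of 3 calls in skin, with Hlf at -0.98 (SE 0.32, edgeR adjusted p = 0.121) and Tef at -0.61 (SE 0.30, adjusted p = 0.280). Of 10 kinases and ubiquitin ligase subunits that modify PER and CRY proteins, 0 passed, and those with the smallest p were Csnk1a1 (0.39, adjusted p = 0.174) and Btrc (-0.29, adjusted p = 0.337). Of 8 clock output genes 0 passed, led by Tspan4 (0.59, adjusted p = 0.0551) and Tsc22d3 (0.96, adjusted p = 0.223). Of 10 glucocorticoid-responsive genes, which include Tsc22d3 and Klf9 of the output list, 0 passed, and Sgk1 (0.52, adjusted p = 0.122) and Errfi1 (1.06, adjusted p = 0.184) had the smallest p. Of 9 immediate early genes, Atf3, which encodes a stress-induced transcription factor, rose from 289, 409 and 282 to 1852, 1066 and 930.0 normalized counts (1.98, SE 0.30, adjusted p = 0.0160), and it passed in 4 of 6 fits with 1 library left out, but not without control 1 or without IMQ 5. DESeq2 called 15.7% of all genes in skin. By DESeq2 the D-box factors had 1 call, the modifiers 0, the outputs 1, the glucocorticoid-responsive genes 0 and the immediate early genes 3 in skin, and at an unadjusted p under 0.05 by edgeR the numbers were 1, 1, 1, 2 and 5.

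In the intestine edgeR called 2.95% of all genes. Of 7 other loop components 0 passed, with Bhlhe40 at 0.98 (SE 0.22, edgeR adjusted p = 0.0716) and Ciart at 1.30 (SE 0.67, adjusted p = 0.529). The D-box factors gave 0 of 3, with Nfil3 at -0.25 and Tef at 0.39. The modifiers gave 0 of 10, with Csnk2a1 (-0.33) at the smallest p, and the immediate early genes 0 of 9, led by Nr4a1 (0.75) and Atf3 (1.12). Of 8 output genes 1 rose, Por, which encodes the reductase that supplies electrons to cytochrome P450 enzymes. It had 8958, 5965 and 8404 normalized counts in controls 7, 8 and 9 and 17345 and 18582 in IMQ 10 and 11 (1.21, SE 0.20, adjusted p = 0.0202). Of 10 glucocorticoid-responsive genes 1 rose, Fkbp5, a co-chaperone of the glucocorticoid receptor, with 852, 744 and 862 in the controls and 1437 and 2916 in IMQ (1.41, SE 0.27, adjusted p = 0.0426).

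For Por and Fkbp5, named because they passed in these libraries, both IMQ libraries lay above all controls, as for 15.1% of all genes tested in the intestine. Libraries 7 and 11 were not alike in these 2 genes, whereas they were in Dbp. Por passed without control 7 and without control 8, and Fkbp5 passed without IMQ 10, but neither passed in the remaining fits with 1 library left out, with adjusted p-values up to 0.138 and 0.158. DESeq2 called 6.69% of all genes in intestine. Of the lists it called 1 of the other loop components, 0 of the D-box factors, 0 of the modifiers, 2 of the outputs, 5 of the glucocorticoid-responsive genes and 0 of the immediate early genes, and the numbers at an unadjusted p under 0.05 by edgeR were 1, 0, 0, 4, 5 and 1. The interaction between tissue and treatment was called for 0 genes of any of these lists, the nearest in the loop being Bhlhe41 (1.66, SE 0.43, edgeR adjusted p = 0.0730) and Ciart (2.43, SE 0.79, adjusted p = 0.142), both of them under 0.05 before adjustment. For the interaction DESeq2 called 2 loop components and 1 of the 8 output genes, where it called 7.68% of all genes. In 6 of the 8 other settings 1 output gene was called. In the main setting Por, the output gene with the smallest p, was at 1.11 (SE 0.27, edgeR adjusted p = 0.0585).

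Between the control tissues, 6 of 7 other loop components tested were higher in skin, with a median log2 fold change of 2.71 over the 7 and 0.00 over all genes, where 25.7% of all genes were higher in skin and 26.2% lower. Rora (4.29), Ciart (4.0), Bhlhe41 (2.83), Arntl2 (2.71) and Cry2 (1.16) were among those higher in skin. Hlf was higher in skin (2.80), as were the kinase Csnk1e (1.71), Tspan4 (2.09) and Klf9 (0.79), while Csnk2a1 (-0.58), Csnk1d (-0.35, a direction that turned with FPKM values), Por (-0.82) and Ivns1abp (-1.09) were lower. Of the glucocorticoid-responsive genes 6 of 10 were higher in skin, from Klf9 to Dusp1 (3.01), and of the immediate early genes 4 of 9, from Jun (0.81) to Egr2 (6.06). These calls were made with edgeR as above. With 1 of the 6 control libraries left out, Csnk1d passed in 0 of 6 fits (adjusted p from 0.0507 to 0.129), Csnk2a1 in 2, Klf9 in 3 and Jun in 3.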

How the data were processed

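The 10 clock genes and the lists around them were chosen with earlier results of these data known. In the deposited table the authors give read counts, FPKM and TPM per gene and library. Per the labels and the methods, reads of a stranded mRNA library were trimmed, aligned to mm10 with HISAT2 2.1.0 and assembled with StringTie 2.1.3b; the counting tool, its strand setting and its treatment of reads shared by related genes are not given in the sources used here. Levels of related genes (Per1, Per2 and Per3, or Nr1d1 and Nr1d2) and of genes with an antisense partner are uncertain to that extent; exon overlaps were read from GENCODE vM21.

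Counts were fitted within each tissue, or over all 11 libraries for the interaction, with edgeR 4.0.16 (R 4.3.3, RLE normalization, genes with at least 1 count in every library of the fit, quasi-likelihood test, Benjamini-Hochberg over all genes, threshold 0.05). The SE is the absolute log2 fold change over the square root of F. Alternatives were TMM and upper-quartile scaling, DESeq2 1.42.0, limma 3.58.1 (voom, and on log2 FPKM + 0.01 or + 1), other filters, a fit of all libraries and leaving out each library. FPKM served for levels between genes and ratios within a library, and deposited TPM as an alternative for levels. Likeness used genes with a mean of at least 100 normalized counts in each tissue, leaving out the gene itself, and the 5 nearest were named. Of other lists the text names genes called (at most 6 per list and comparison), or the 2 with the smallest p where none was called, except that some list genes are not reported here; Nfil3 and Tef values by library were added for their place beside Dbp. Fits were tested on simulated data. Nothing states whether replicates are separate animals, so p-values measure the spread between these libraries. No 2 libraries of a group agreed within sampling noise (10 pairs), and pairs across groups were not checked. Gene positions and promoter sequences are from RefSeq (GRCm38.p6, the assembly of mm10).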

Additional observations from a re-analysis of the deposited data

How the results depend on the processing

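No paired analysis was possible because the replicate numbers run from 1 to 11 and no number is shared between groups. With DESeq2 the clock genes called were 2 in skin and 6 between the control tissues (0 and 3 with edgeR), and in small intestine and for the interaction 0 as with edgeR. Between the control tissues 3 to 6 of the 10 were called with 1 library left out, the 6 without intestinal control 8. In the 6 skin, 5 intestinal and 11 interaction fits with 1 library left out, 0 were called. Over the whole table the genes called went from 1382 with edgeR to 3030 with DESeq2 in skin, from 588 to 1206 in intestine, from 462 to 1281 for the interaction and from 9798 to 10209 between the control tissues.

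With FPKM values the sign turned for Arntl in skin (-0.025 and -0.021 with 0.01 and 1 added), Dbp in intestine (-0.039 with 0.01 added), and Nr1d1 (0.31 and 0.30) and Csnk1d (0.10 and 0.10) between control tissues, where FPKM moved the median of all genes by over 0.1. The interaction turned for Npas2 (-0.012 with upper-quartile scaling, -0.012 with voom, -0.12 with FPKM + 1) and Nr1d2 (-0.17 with voom, -0.20 and -0.12 with FPKM). With TPM the ratio of mean levels, skin over intestine, turned for Arntl (0.11) and Cry1 (0.18).

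Leaving out 1 library turned the sign in these ranges of log2 fold change. In skin they were -0.052 to 0.20 for Arntl and -0.24 to 0.36 for Per2. In intestine they were -1.15 to 0.52 for Arntl, -1.12 to 0.32 for Npas2, -0.069 to 1.38 for Per2, -1.86 to 1.49 for Per3, -2.0 to 0.48 for Nr1d2 and -3.07 to 1.51 for Dbp. For the interaction they were -1.21 to 0.49 for Arntl, -0.86 to 0.61 for Npas2, -0.24 to 0.69 for Per1, -0.17 to 1.25 for Per2, -1.26 to 2.05 for Per3, -0.20 to 0.33 for Cry1, -0.34 to 0.92 for Nr1d1, -1.62 to 0.84 for Nr1d2 and -1.64 to 2.91 for Dbp. Between control tissues they were -0.49 to 0.089 for Nr1d1 and -0.089 to 0.62 for Nr1d2. The causes were not tested. Where a fit left intestinal IMQ with 1 library, that library was assumed to vary like the controls.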
